A study of Mus musculus with 6 samples.

Results

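A set of 10 genes of the neuronal cytoskeleton were followed in the mouse hypothalamus, out of 21507 genes with a row of their own in the deposited value table. They are the neurofilament subunits *Nefl*, *Nefm*, and *Nefh*, the related filament genes *Ina* and *Prph*, the growth genes *Gap43* and *Stmn2*, and the microtubule genes *Tubb3*, *Map2*, and *Mapt*. The set was selected on *Nefm*, which was lower in the ΔLepR arrays, in order to ask whether the other subunits moved with it. The difference of *Nefm* is therefore given as a description, with no test. Total RNA of the whole hypothalamus of male mice was hybridized to 6 Affymetrix arrays. The control arrays, WT1 to WT3, carry the genotype label Slugfl/fl, without *Cre*, and the ΔLepR arrays, KO1 to KO3, the label Slugfl/fl;LepRCre/Cre, so that *Cre* is homozygous. Mice of both groups carried the floxed *Slug* alleles and were labeled 8 weeks old, while the methods give an older age.

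*Cre* is driven by the leptin receptor gene, so deletion is directed at the leptin receptor-expressing cells, while the RNA came from the whole hypothalamus. The groups also differ in the *Cre* insertion itself, and mice carrying *Cre* without floxed *Slug* were not analysed here. The sample labels name a CreERT2 line and the methods a *Cre* knockin. *Slug* is the gene *Snai2*, and its row ran against the labels, at 3.79, 4.23, and 4.23 on the log2 scale in the controls against 10.36, 9.68, and 10.49 in ΔLepR. Which part of *Snai2* its probes cover was not analysed here, so every direction is given for the arrays as labeled. Nothing in the labels ties an array to a number of mice, and p-values measure only the spread between these arrays.

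Neurofilaments are the intermediate filaments of neurons. The light, medium, and heavy chains (*Nefl*, *Nefm*, *Nefh*) assemble together with alpha-internexin (*Ina*) or, in peripheral and some central neurons, with peripherin (*Prph*), and they set the caliber of large axons. Microtubules run beside them, built from tubulins such as the neuronal βIII-tubulin (*Tubb3*). They are bound by MAP2 in dendrites (*Map2*) and by tau in axons (*Mapt*). GAP-43 (*Gap43*) is a growth cone protein of extending axons, and stathmin-2 (*Stmn2*) regulates microtubules in growing neurites.

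Slug is a repressor that binds E-box sequences, so promoters were searched for the E-box CAGGTG and its reverse complement CACCTG. The RefSeq promoter table (GRCm38.p6) held 4 of the 10 genes, *Ina*, *Map2*, *Prph*, and *Tubb3*, and *Nefm* was not among them. No match lay in the 300 bases around the start of these 4 genes, against 20.2% of all 32851 promoters of that length. The looser form CANNTG, which includes CAGGTG and reads the same on both strands, was found in 1 of the 4 and in 72.3% of all promoters. This match is printed as the single E-box of any form seen in these windows. The printed stretch lies on the plus strand of chr19:47014534-47014563. The E-box within it, in capitals, begins 135 bases upstream of the *Ina* start.
*Ina* promoter: gacggtggcgcgCAGCTGcggtggcactgc
A match is a description of the letters and says nothing of binding.

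On the log2 scale *Nefm* read 5.99, 5.68, and 5.47 in control arrays 1 to 3 and 4.92, 5.02, and 5.57 in ΔLepR arrays 1 to 3, an order kept throughout. ΔLepR arrays 1 and 2 were below every control array, and array 3 lay above control array 3, so the groups overlapped. The means were 5.71 ± 0.26 and 5.17 ± 0.35 (SD, n = 3 each), a log2 difference of -0.54 and a ratio of 0.69. Without control array 1 the difference was -0.40, and without ΔLepR array 3 it was -0.74. In bulk tissue, fewer cells of a type and less RNA per cell cannot be told apart.

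A further row of the table is annotated to *Nefm* together with *A230070E04Rik*, which overlaps *Nefm* on chromosome 14, and cannot be given to either gene. That row read 6.54, 6.53, and 6.08 in the controls and 6.08, 6.42, and 6.14 in the ΔLepR arrays. Its groups overlapped, and its means differed by -0.17. The order of the arrays was not that of the *Nefm* row, since control array 3 stood with the low ΔLepR arrays. It was left out of all counts.

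**Figure D1:**
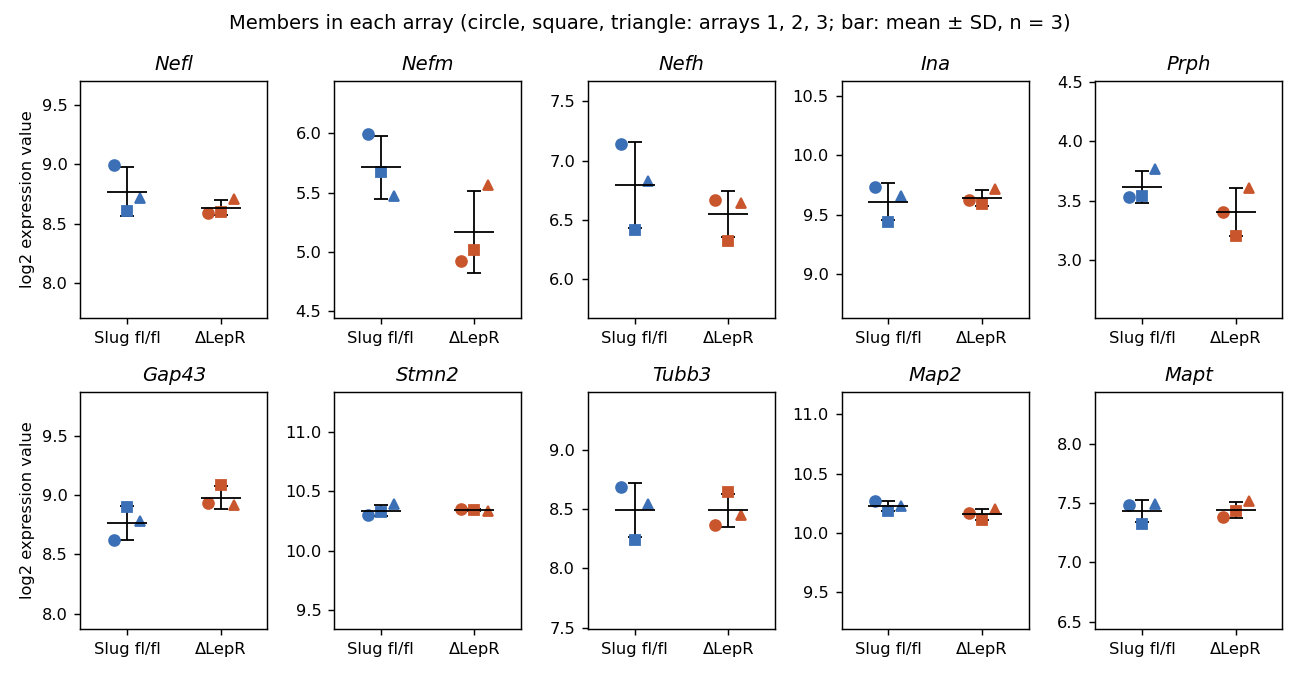
Log2 expression value (y axis, 2 log2 units in every panel) of each of the 10 genes in the 3 control (Slug fl/fl) and the 3 ΔLepR arrays, with the mean ± SD. *Nefm* spans 4.92 to 5.99, and *Stmn2* and *Map2* hardly vary between arrays.

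The other subunits did not pass the test. They were read from a limma fit over all genes at the limits the study used, an unadjusted p under 0.05 together with at least a 1.25-fold rise or a drop to less than 0.75 of the control. *Nefl*, the core subunit, had values of 9.00, 8.60, and 8.71 in the controls and of 8.59, 8.60, and 8.71 in the ΔLepR arrays. Control array 1 was the highest by far, and the other 5 arrays were intermingled. The log2 difference of *Nefl* was -0.14 (SE 0.12, 95% confidence interval -0.40 to 0.13, adjusted p = 0.91, limma), and it was -0.02 without control array 1. *Nefl* and *Nefm* lie close together on chromosome 14, with 1 annotated gene, *Gm19216*, between them in the RefSeq gene table.

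*Nefh*, the heavy chain, had values of 7.14, 6.42, and 6.83 in the controls and of 6.67, 6.32, and 6.65 in the ΔLepR arrays. Control arrays 1 and 3 were above all ΔLepR arrays, whereas control array 2 was below 2 of them. The log2 difference was -0.25 (SE 0.17, 95% confidence interval -0.64 to 0.14, adjusted p = 0.89, limma). This result depended on single arrays. Without control array 2 the difference was -0.44 and passed the unadjusted limits. Without control array 1 it was -0.08, and without ΔLepR array 2 it was -0.14.

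*Ina* had values of 9.73, 9.44, and 9.66 in the controls and of 9.62, 9.59, and 9.72 in the ΔLepR arrays, and the ΔLepR arrays lay inside the range of the controls. Its log2 difference was 0.03 (SE 0.11, 95% confidence interval -0.21 to 0.27, adjusted p = 0.99, limma). *Prph*, whose mean lay under the median of all genes (4.18), had values of 3.54, 3.54, and 3.77 in the controls and of 3.40, 3.20, and 3.60 in the ΔLepR arrays. ΔLepR arrays 1 and 2 were below every control array, as in *Nefm*, and array 3 was not. The log2 difference of *Prph* was -0.21 (SE 0.12, 95% confidence interval -0.49 to 0.07, adjusted p = 0.86, limma). Without ΔLepR array 2 it was -0.11, without control array 3 -0.13, and without ΔLepR array 3 -0.31, none of which passed the limits.

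Of the genes of growth and microtubules, *Gap43* had the largest difference. Its values were 8.62, 8.90, and 8.78 in the controls and 8.93, 9.09, and 8.91 in the ΔLepR arrays. Every ΔLepR array was above every control array, although ΔLepR array 3 and control array 2 were only just apart. An exact permutation test gave a two-sided p of 0.10, the lowest value that 3 against 3 can reach. Any full separation of the groups gives that value, so it adds nothing to the lack of overlap. The log2 difference was 0.21 (SE 0.11, 95% confidence interval -0.03 to 0.45, unadjusted p = 0.077, adjusted p = 0.85, limma), or 1.16-fold. In this fit it passed neither of the unadjusted limits, nor the adjusted p. Without control array 1, the lowest, the difference was 0.14, and without control array 2 it was 0.28 (unadjusted p = 0.043, limma). With the robust prior and intensity trend listed below, the unadjusted p was 0.022 (limma). The fold limit was not reached in any of these.

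*Stmn2* differed least between arrays, with 10.30, 10.32, and 10.39 in the controls and 10.35, 10.34, and 10.34 in the ΔLepR arrays. Its log2 difference was 0.00 (SE 0.09, 95% confidence interval -0.20 to 0.20). *Map2* was 10.27, 10.18, and 10.23 against 10.16, 10.11, and 10.20, with overlapping groups and a log2 difference of -0.07 (SE 0.09, 95% confidence interval -0.27 to 0.13). *Mapt* was 7.48, 7.33, and 7.49 against 7.38, 7.44, and 7.51, and its log2 difference was 0.01 (SE 0.10, 95% confidence interval -0.21 to 0.23). *Tubb3* ranged from 8.24 to 8.69 in the controls and from 8.37 to 8.64 in the ΔLepR arrays, with a log2 difference of -0.00 (SE 0.13, 95% confidence interval -0.30 to 0.29). The ΔLepR arrays of *Tubb3* lay within the range of the controls, and the intervals of all 4 genes stayed within a ratio of 0.75 and a fold of 1.25.

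**Figure D2:**
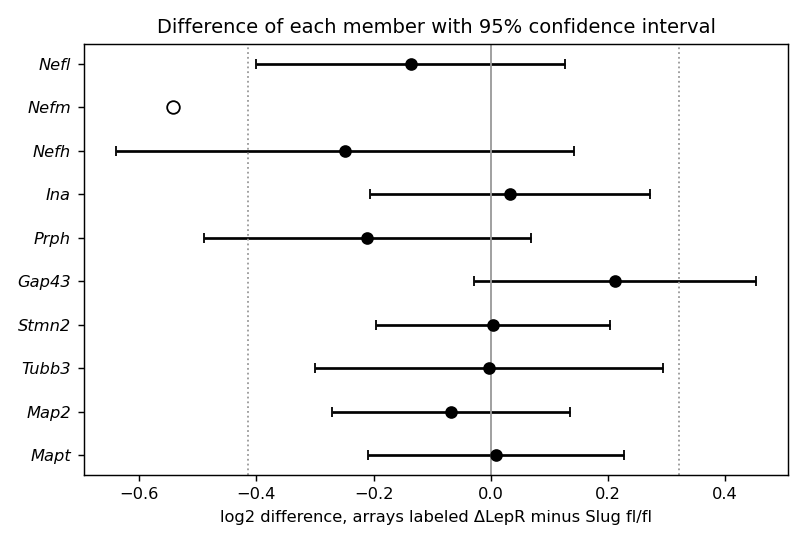
Log2 difference between the groups (x axis, ΔLepR minus Slug fl/fl) for each of the 10 genes, with the 95% confidence interval from limma. *Nefm*, the open circle, is drawn without an interval because it chose the genes, and the dotted lines mark a ratio of 0.75 and a fold of 1.25.

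Counted together, 1 of the 10 genes (*Nefm*) was lower by the unadjusted limits, none was higher, and 9 did not pass. Over all genes 0.577% were lower and 1.44% were higher by the same rule, and since *Nefm* chose the set nothing is read from its count. None of the 10 passed an adjusted p of 0.05 in limma, which 0.0139% of all genes did. None of the 10 had all ΔLepR arrays below all controls, as 5.56% of all genes had, and *Gap43* alone had all of them above, as 5.91% had. The median log2 difference of the 10 genes was -0.04, that of the 9 without *Nefm* was -0.00, and that of all genes was 0.00. Among the 4 filament subunits other than *Nefm* 3 differences were negative, against 49.3% of all genes, and their median was -0.17. With only 4 genes, nothing is read from this count. Without control array 1 the differences were -0.02 for *Nefl*, -0.08 for *Nefh*, -0.25 for the dim *Prph*, and 0.09 for *Ina*.

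The arrays did not deviate in the same way for each gene. Control array 1 was the highest of the 6 for *Nefl*, *Nefm*, *Nefh*, *Ina*, *Tubb3*, and *Map2*, and the lowest for *Gap43*, 0.25 under the mean of that gene. *Nefm* was 0.55 above its own mean in that array, *Nefh* 0.47, and *Nefl* 0.29. *Stmn2* was at its lowest there, 0.04 under its mean. ΔLepR array 2 was the lowest for *Nefh*, *Prph*, and *Map2*, and the highest for *Gap43*.

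Relations between the genes were computed over the 6 arrays for all 45 pairs, and the 36 pairs without *Nefm* were tested. The strongest was between *Gap43* and *Map2*, with Pearson's r of -0.97 (exact permutation p = 0.0056, adjusted over the 36 pairs 0.17) and Spearman's rho of -0.94 (exact permutation p = 0.017, adjusted 0.30). It was -0.95 with the group means removed and -0.88 without the 2 arrays farthest from the median of *Gap43*. *Nefl* and *Nefh* had r = 0.88 (exact permutation p = 0.029, adjusted 0.175) and rho = 0.66 (exact permutation p = 0.175, adjusted 0.56), with r = 0.94 without control array 1 and ΔLepR array 1. None of the 36 pairs passed an adjusted p of 0.05, and 7 passed unadjusted. The pairs of *Nefm* are given as a description, since its group difference is part of r. *Nefl* and *Nefm* had r = 0.77 and rho = 0.77, with r = 0.69 once the group means were removed, and r was 0.34 without control array 1 and ΔLepR array 1, so that relation rests on them. *Nefm* and *Nefh* had r = 0.58 and rho = 0.31, with r = 0.40 once the group means were removed.

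**Figure D3:**
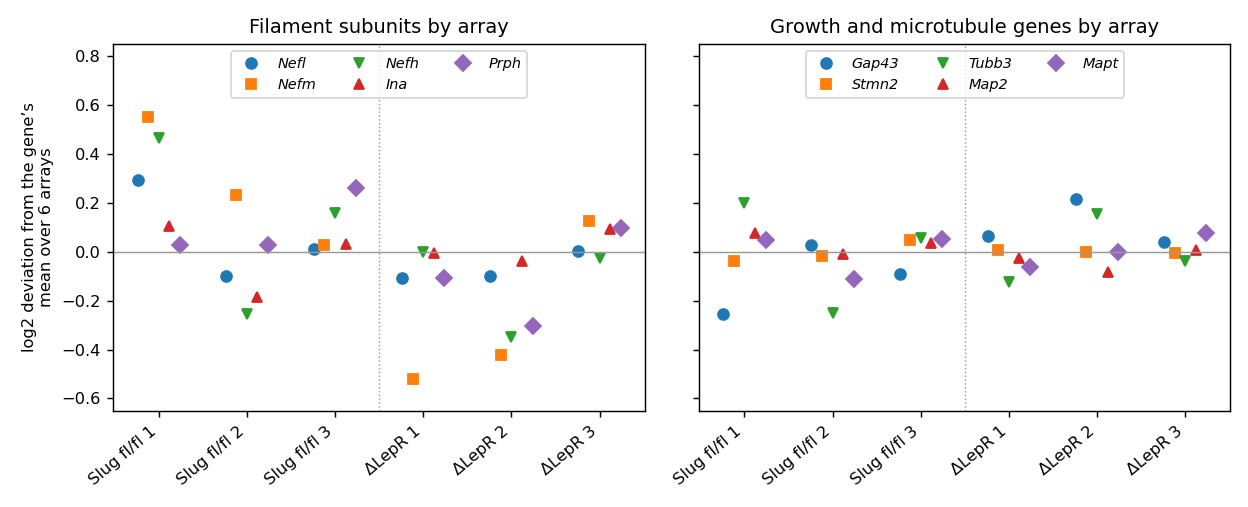
Deviation of each gene from its own mean over the 6 arrays (y axis, log2 units) in each array (x axis), with filament subunits on the left and growth and microtubule genes on the right. In control array 1 *Nefm* is 0.55 and *Nefh* 0.47 above the mean, and *Gap43* is 0.25 below it.

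Genes most like *Nefm* were sought by Pearson's r over the 6 arrays, among 1459 genes brighter than the median of all genes and with at least 0.5 times the SD of *Nefm*. They were *Rims4* (r = 0.97), a gene of the presynaptic active zone family, *Plekho2* (r = 0.96), *Hltf* (r = 0.96), a DNA helicase-like factor, *Zfp804a* (r = 0.95), and *P4ha3* (r = 0.94), a collagen prolyl hydroxylase. They are the highest of 1459 correlations over 6 arrays and stand as a description.

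A wider view of the cytoskeleton was taken from 8 lists with 94 genes, of which 85 had a row of their own. One gene, *Krt18*, was lower by the unadjusted limits, none was higher, and 84 did not pass, against the 0.577% and 1.44% of all genes given above. *Krt18* encodes a keratin of simple epithelia, and its values were 3.70, 3.94, and 3.64 in the controls and 3.56, 3.28, and 3.0 in the ΔLepR arrays. The groups did not overlap, but both lay under the median of all genes. Its log2 difference was -0.48 (SE 0.15, adjusted p = 0.79, limma), and it no longer passed without control array 2 (-0.39) or ΔLepR array 3 (-0.34). Its partner keratin *Krt8*, also under the median of all genes, was at -0.26 (SE 0.14), passed without ΔLepR array 2 (-0.42), and was -0.15 without ΔLepR array 1. *Vim*, the vimentin gene of glia and vessels, was at -0.14 (SE 0.10), and at -0.09 without control array 1.

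Over the 85 genes, 8 had all ΔLepR arrays below all controls and 3 had all of them above, beside 5.56% and 5.91% of all genes. Of 12 stathmins, collapsin response mediator proteins (CRMPs), and growth cone proteins, none passed both limits. A pair of CRMPs came nearest, in opposite directions. *Dpysl3* was 6.44, 6.50, and 6.32 in the controls and 6.05, 6.16, and 6.22 in the ΔLepR arrays, without overlap. Its log2 difference was -0.28 (SE 0.10, unadjusted p = 0.018, adjusted p = 0.84, limma), short of the ratio limit, and it was -0.16 (unadjusted p = 0.10) when its rows were averaged. *Crmp1* was 7.66, 7.62, and 7.61 against 8.03, 7.76, and 7.88, also without overlap. Its log2 difference was 0.26 (SE 0.10, unadjusted p = 0.029, adjusted p = 0.84, limma). *Crmp1* passed the unadjusted limits without ΔLepR array 2 (0.32), and was at 0.19 without ΔLepR array 1. *Marcksl1*, another growth cone gene, was at 0.18 (SE 0.10) and *Stmn1*, the founding stathmin, at -0.20 (SE 0.12), or -0.11 without ΔLepR array 1.

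The microtubule lists gave no call with all 6 arrays. Among 7 other tubulins *Tubb2b*, a β-tubulin of developing neurons, was at -0.29 (SE 0.14) and at -0.17 without ΔLepR array 3. *Tubb5* was at 0.12 (SE 0.10) and at 0.055 without control array 1, and the median of the list was 0.11. *Tubb6*, which lay under the median of all genes, was the highest at 0.20 (SE 0.15), passed as higher without control array 2 (0.34), and was 0.09 without control array 3 or ΔLepR array 3. Whether probes of 1 tubulin also bind another was not analysed here. Among 19 other microtubule-associated proteins the differences ran from -0.27 (*Map6d1*, -0.13 without ΔLepR array 1) to 0.22 (*Camsap3*, which caps the minus ends of microtubules), with a median of 0.01. The 15 axonal transport motors ran from -0.09 to 0.13, with a median of -0.02. The highest of them was *Kif5a*, a kinesin that carries neurofilaments along axons, at 0.13 (SE 0.10, 95% confidence interval -0.08 to 0.34).

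The spectrin and ankyrin scaffold, which lies under the axonal membrane, had 8 of 10 differences below 0 and a median of -0.05, against 49.3% of all genes below 0. In the other cytoskeletal lists the share below 0 ran from 36.8% (other microtubule-associated proteins) to 77.8% (other intermediate filaments). In the marker lists described below it ran from 33.3% (striatum) to 83.3% (thalamus), with 72.7% for neurons. The lowest member of the scaffold was *Sptbn4*, the spectrin of axon initial segments and nodes, at 5.06, 5.01, and 5.17 in the controls and 4.94, 4.89, and 4.86 in the ΔLepR arrays, a log2 difference of -0.18 (SE 0.09). *Add1*, which caps actin at the scaffold, was at -0.16 (SE 0.09), and like *Sptbn4* did not overlap between groups, as was so for 3 of these 10 genes, beside 5.56% of all genes. Neither reached the ratio limit. The 9 kinases and modifiers of tau and neurofilaments, led by *Cdk5* at 0.09 (SE 0.12), stayed between -0.07 and 0.09. Of 4 filament linkers and turnover genes, *Trim2*, a ubiquitin ligase of the light chain, was at -0.16 (SE 0.09, unadjusted p = 0.10, limma). Its 3 ΔLepR arrays were below the 3 controls.

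**Figure D4:**
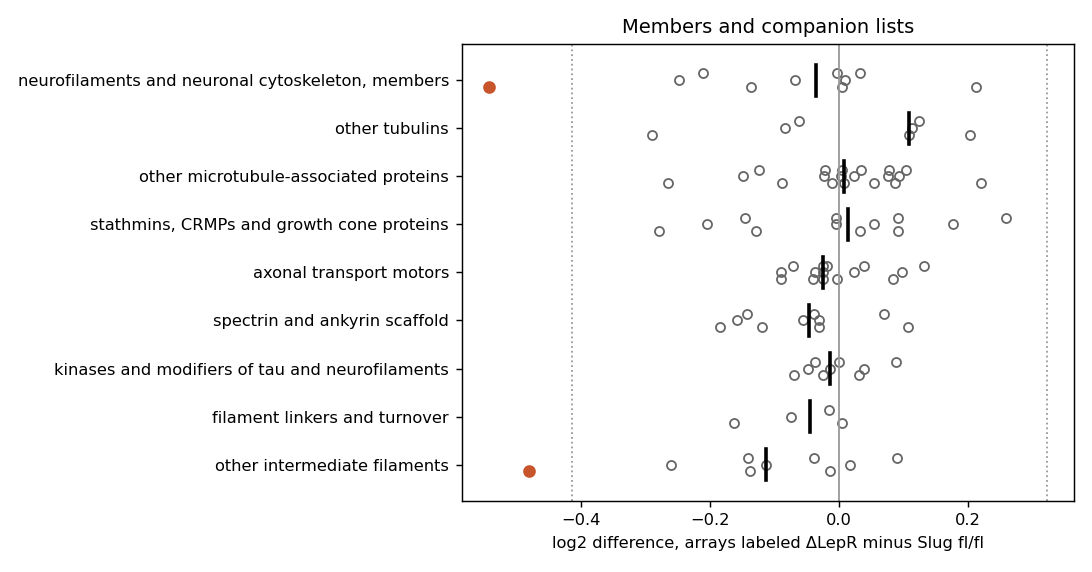
Log2 difference between the groups (x axis, ΔLepR minus Slug fl/fl) for each gene of the 10-gene set and of 8 other cytoskeletal lists, with the list median as a bar. Filled points are the 2 genes past the unadjusted limits, *Nefm* at -0.54 and *Krt18* at -0.48. The difference of *Nefm* chose the 10-gene set, so its filled point is a description and no test. The dotted lines mark a ratio of 0.75 and a fold of 1.25.

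Markers of cell types and neighboring tissue were set beside these values. The mean log2 level of 11 neuronal markers, such as *Snap25* and *Rbfox3*, lay between 8.99 and 9.11 in the controls and between 9.02 and 9.05 in the ΔLepR arrays, and none of them passed the limits. Of 11 hypothalamic neuron markers 9 were brighter than the median of all genes, and their mean was 6.19 to 6.42 in the controls and 6.28 to 6.36 in the ΔLepR arrays. Among these 11 *Avp*, the vasopressin gene, was lower in ΔLepR by the unadjusted limits (log2 difference -0.46), though not without control array 2 (-0.34) or ΔLepR array 1 (-0.38). The 6 thalamic markers varied most among the controls, from 5.01 in array 1 to 5.89 in array 3, and lay between 5.22 and 5.46 in the ΔLepR arrays. Control array 1, the highest for *Nefl*, *Nefm*, and *Nefh*, was thus the lowest for thalamic markers. It was also the lowest for hypothalamic neuron markers (6.19) and the highest for astrocyte markers (7.75) and for the dim cortical and hippocampal markers (3.20, against 2.81 to 3.0 in the other arrays). Means of the 6 oligodendrocyte markers were 7.0 to 7.10 and 6.92 to 7.20. None of 5 cortical and hippocampal and none of 5 pituitary markers was brighter than the median of all genes. ΔLepR array 1, the lowest for *Nefm*, was the highest for these dim pituitary markers (3.67, against 3.03 to 3.36 in the other arrays). That array was also the highest for choroid plexus markers (4.41) and the lowest for oligodendrocyte markers (6.92). Over all 11 marker lists 2 of 69 genes were lower, *Avp* and *Emx1* (-0.52), and 2 were higher, *Gjb6* (0.35) and *Neurod6* (0.34), beside 0.577% and 1.44% of all genes. Of these *Emx1* and *Neurod6* belong to the cortical list. With 1 array left out, *Gjb6* passed only without control array 1 (0.45) or ΔLepR array 3 (0.49), and *Neurod6* only without control array 1 (0.45) or ΔLepR array 2 (0.43). The part of tissue content in the *Nefm* difference was not tested.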

How the data were processed

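The authors deposited 1 table of processed values, read here as log2 because they run from 0.90 to 12.43, a range from which the base is inferred. MAS5 is named in the submitters' processing notes, without a role, and the normalization is not given in the sources used here. Array medians lay between 4.04 and 4.07, correlations between arrays from 0.991 to 0.993, and no further normalization was applied. Signal over background could not be set, and precision is limited by how many arrays there are. A single gene symbol was given for 21925 of the 24663 rows, and each of 21507 genes was read from its brightest row. The RefSeq gene table held the Entrez identifier of 21832 rows.

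A limma fit (version 3.58.1, R 4.3.3; lmFit, eBayes) without covariates compared the groups over all genes, with Benjamini-Hochberg adjustment. Limma SE, intervals, and p-values of a gene draw on the spread of all genes besides its own. The fit was tested on simulated data. The genes and lists were chosen with earlier results of these data known. Genes named besides the 10 are *Snai2*, up to 4 per list with the smallest p, and the 5 most like *Nefm*. Symbols of the list genes without a row of their own were not analysed here. The markers were named after their values were seen, *Snap25* and *Rbfox3* as examples, and *A230070E04Rik* and *Gm19216* for their position. Relations between genes other than *Nefm* used an exact permutation test over arrays.

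Alternatives were leaving out each array in turn or the dim genes, quantile normalization, centring on the median, a robust prior with intensity trend, the methods' Student's t-test, averaging a gene's rows, and the replicate number as a block.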

Additional observations from a re-analysis of the deposited data

How the results depend on the processing

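None of the 9 genes other than *Nefm* passed the unadjusted limits under any alternative, except *Nefh* without control array 2, and with the dim genes left out *Prph* was not tested. With *Nefm*, whose difference chose the set and is no test of it, the count was 1, against 0 with the methods' t-test and 0 to 2 as each array was left out (0 without control array 1 or ΔLepR array 1 or 2). The median of the 10 genes ran from -0.11 to -0.02 as arrays were left out. Over all genes, 433 passed, against 218 with the methods' t-test (none after adjustment), 213 of 10933 genes with dim genes left out, where fewer genes were tested, and 521 to 651 with 1 array left out. The labels do not say whether same-numbered arrays were paired. Their deviations from the group means correlated at -0.00, -0.01, and -0.06, which cannot settle whether they were. With the replicate block 486 genes passed, and none of the 9.

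*Stmn2* and *Dst* changed sign under quantile normalization, to -0.00085 and -0.00094. Ranges as each array was left out include 0 for *Ina* (-0.052 to 0.095), *Stmn2* (-0.015 to 0.030), *Tubb3* (-0.13 to 0.10), *Mapt* (-0.044 to 0.042), *Cdk5* (-0.0095 to 0.16), *Cdk5r2* (-0.19 to 0.070), *Ttbk1* (-0.11 to 0.033), *Macf1* (-0.056 to 0.0057), and *Dst* (-0.043 to 0.045), and for no other of the 10 genes, *Snai2*, the genes named by list, or the 4 markers past the limits. The genes most like *Nefm* and the markers *Snap25* and *Rbfox3* were not refitted in this way. *Krt18*, *Gjb6*, and *Neurod6* did not pass with the methods' t-test, nor *Gjb6* with quantile normalization. No cause of these changes was tested.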
